A study of Mus musculus with 2 samples.

Results

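The immediate early genes and the feedback genes of the ERK pathway were described in primary neurospheres of mouse embryonic forebrain. Of 33 listed genes, those with at least 50 unique molecular identifiers (UMIs, the tags that count captured RNA molecules) over the kept cells were taken as members, which left 30 of the 19144 genes in the table. The members were 7 genes of the AP-1 and EGR transcription factors, 10 other immediate early genes and 13 ERK feedback genes. Just below the minimum were Fosl1 with 36 UMIs, Fosb with 13 and Egr3 with 6, and just above it were Egr2 with 88, Dusp5 with 116 and Zfp36 with 119. The whole table held 11057 genes with at least 50 UMIs.

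The spheres were grown from the lateral ventricle walls of CD1 mouse embryos in serum-free medium with leukemia inhibitory factor (LIF) at 10 ng/mL, a cytokine that sustains primitive neural stem cells, and colonies of 50 μm or more were counted as spheres. The protocol names an additive, EFH, without defining it. Transcripts were counted by Drop-seq, in which droplets pair single cells with barcoded beads, and the series text speaks of nuclei where the protocol speaks of dissociated spheres. The labels give 2 samples in 1 group with no genotype, treatment or age contrast. The table does not tie its 4000 barcodes to either sample, so it was read as 1 sample, and no test or p-value was possible. The rule kept barcodes in which 500 genes or more were seen and mitochondrial UMIs made up no more than 10%; these, 3765 in number, are called cells below. They held 17395968 UMIs, with a median of 3869 per cell and a range of 638 to 54060. All 16 listed neural stem cell and radial glia genes had at least 50 UMIs, among them Fabp7 at 7166 CPM (UMI counts scaled by the total), Vim at 3522 CPM and Sox2 at 433 CPM, whereas none of 8 microglial genes had. No doublets were removed.

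Growth factor receptors activate the RAS, RAF, MEK and ERK kinases in turn, and ERK switches on genes that need no new protein for their transcription, the immediate early genes. FOS and JUN proteins pair to form the AP-1 factors, and the EGR proteins are zinc finger factors of the same early wave. The same signal induces its own brakes: Sprouty and SPRED proteins act on the pathway near RAS and RAF, and dual specificity phosphatases (DUSPs) dephosphorylate the kinases. Etv1, Etv4 and Etv5, the PEA3 group of ETS factors, are commonly read as transcriptional targets of FGF and ERK signalling. Immediate early genes can also be induced by tissue dissociation.

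Promoter sequences are shown for 5 members named in the results below: Fos, Nr4a1, Btg2, Dusp6 and Spry2. Fos and Nr4a1 were higher in cells with Egr1, but Nr4a1 rested on few UMIs. Its ratio fell to 0.921 at a mitochondrial limit of 5%. Btg2 differed by cell cycle and cluster, and Dusp6 and Spry2 were the feedback genes with the highest levels. Each sequence is the 250 bases before the RefSeq start on GRCm38.p6, 5′ to 3′ on the gene's strand. Capitals mark TGACG or its reverse complement CGTCA in Fos and Nr4a1, GCGGGGGCG read on the other strand in Nr4a1, and TGACGTCA in Btg2.
Fos, chr12:85473640-85473889 (+ strand): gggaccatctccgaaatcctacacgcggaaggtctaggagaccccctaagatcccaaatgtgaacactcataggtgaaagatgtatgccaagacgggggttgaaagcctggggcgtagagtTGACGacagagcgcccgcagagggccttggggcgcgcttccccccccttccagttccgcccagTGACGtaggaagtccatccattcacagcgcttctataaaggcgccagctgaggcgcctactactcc
Nr4a1, chr15:101266596-101266845 (+ strand): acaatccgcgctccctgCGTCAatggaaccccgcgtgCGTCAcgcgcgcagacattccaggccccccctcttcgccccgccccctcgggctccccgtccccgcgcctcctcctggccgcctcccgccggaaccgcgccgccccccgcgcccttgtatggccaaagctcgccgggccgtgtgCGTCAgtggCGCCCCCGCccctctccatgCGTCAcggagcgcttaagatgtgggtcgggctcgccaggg
Btg2, chr1:134079156-134079405 (- strand): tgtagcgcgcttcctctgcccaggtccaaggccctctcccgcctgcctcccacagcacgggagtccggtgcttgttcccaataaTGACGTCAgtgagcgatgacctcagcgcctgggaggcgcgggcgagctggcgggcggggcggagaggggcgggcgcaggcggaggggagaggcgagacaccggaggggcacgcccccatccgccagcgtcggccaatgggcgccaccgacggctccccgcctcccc
Dusp6, chr10:99262981-99263230 (+ strand): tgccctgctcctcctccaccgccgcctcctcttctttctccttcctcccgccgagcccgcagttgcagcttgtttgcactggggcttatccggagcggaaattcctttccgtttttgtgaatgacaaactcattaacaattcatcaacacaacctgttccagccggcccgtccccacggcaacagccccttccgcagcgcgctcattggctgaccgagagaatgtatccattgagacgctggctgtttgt
Spry2, chr14:105896820-105897069 (- strand): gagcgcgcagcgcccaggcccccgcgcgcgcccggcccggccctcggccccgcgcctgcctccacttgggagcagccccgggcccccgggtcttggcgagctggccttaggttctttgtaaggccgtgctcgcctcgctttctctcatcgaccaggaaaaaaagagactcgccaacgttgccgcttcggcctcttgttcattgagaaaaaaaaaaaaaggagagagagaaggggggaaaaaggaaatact

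The Fos promoter held TGACG at 129 to 125 and at 66 to 62 bases before the start. The Nr4a1 promoter held the reverse complement at 4 places, 233 to 229, 213 to 209, 69 to 65 and 40 to 36 bases before the start, and the EGR motif at 60 to 52 bases. In Btg2 the full TGACGTCA, the cyclic AMP response element, lay 166 to 159 bases before the start. TGACG lies within TGACGTCA, and both were searched on both strands. Over 16520 protein-coding promoters of this length, 20.8% held TGACG, 2.07% TGACGTCA and 3.54% GCGGGGGCG. Promoters were at hand for 24 members, and TGACG was in 2 of 6 AP-1 and EGR promoters (Fos, Junb), 3 of 8 of the other immediate early genes (Btg1, Btg2, Nr4a1) and 3 of 10 feedback promoters (Dusp1, Dusp5, Spred2). TGACGTCA was in Btg2 and Dusp1, and GCGGGGGCG in Fosl2, Nr4a1 and Zfp36. The CArG box, bound by serum response factor, was in 1.36% of all promoters and in those of Zfp36 and Dusp5, with copies in Dusp5 at 82 to 73 and at 72 to 63 bases. CCGGAA, an ETS core, was in 15.7% of all promoters and in Nr4a1 and Zfp36, TGANTCA in 6.13% and in Zfp36l1, and GCGTGGGCG in 0.757% and in no member. The GC box GGGCGG, which can overlap GCGGGGGCG, was in 44.4% of all promoters and in 4 of 6, 7 of 8 and 7 of 10 of the member groups in the order above. On mm10 the GENCODE annotation places Fos at chr12:85473890-85477273 and Dusp6 at chr10:99263231-99267489 on the plus strand and Spry2 at chr14:105891947-105896819 on the minus strand, so these 3 windows end at the annotated gene start. That of Nr4a1 lies inside its annotated gene span, chr15:101254269-101274795. None of these motifs was in the windows of Dusp6 and Spry2. A match describes letters in the window and says nothing of binding.

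Levels are CPM over all kept cells with exact 95% Poisson intervals, which, like all intervals below, cover counting error only. UMIs count molecules by their 3′ tag, so CPM values were not divided by transcript length. The feedback genes had the highest of the 3 group sums: the 13 summed to 1033 CPM (1018 to 1048), the 7 AP-1 and EGR genes to 661 CPM (649 to 673) and the 10 other immediate early genes to 667 CPM (655 to 679). The median member stood at 54.5 CPM, against 29.3 CPM for all genes with at least 50 UMIs.

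**Figure D1:**
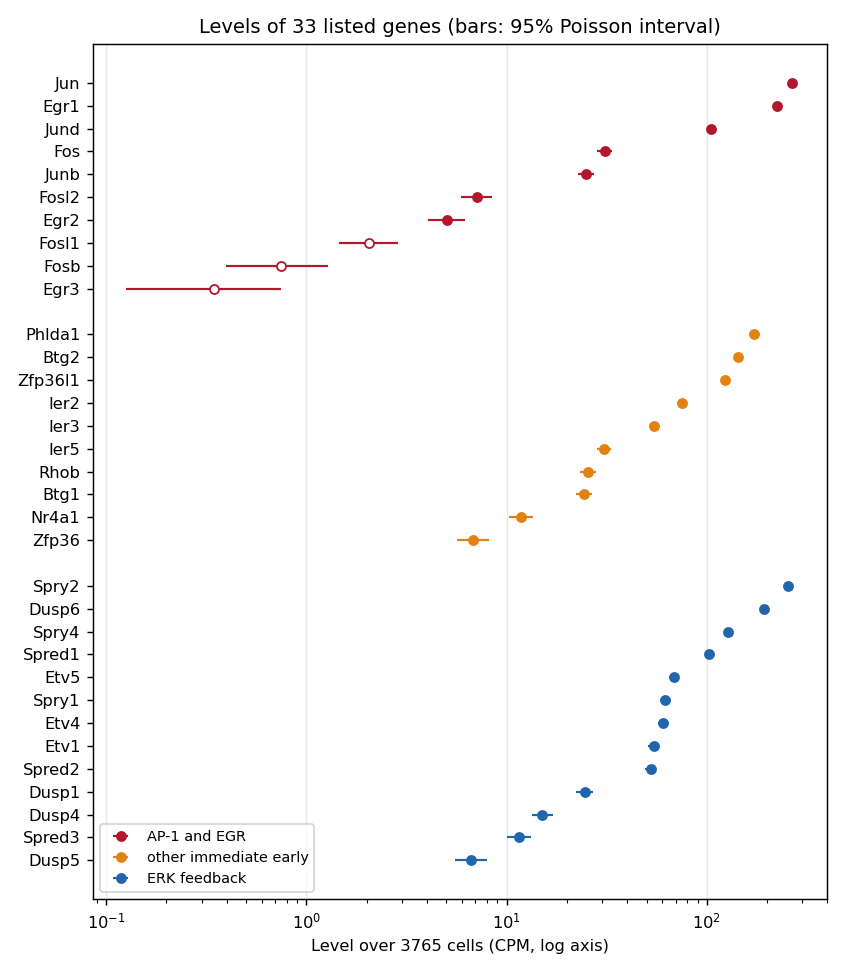
Level of each of the 33 listed genes over 3765 cells in CPM on a log axis, with 95% Poisson intervals; open circles are the 3 genes under 50 UMIs. Jun, Spry2, Egr1 and Dusp6 stand at 193 to 265 CPM, and Fosb and Egr3 lie below 1 CPM.

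The AP-1 and EGR sum rested on few genes. Jun, a partner of FOS proteins, was at 265 CPM (257 to 273) and Egr1 at 223 CPM (216 to 230), and these 2 genes held 73.9% of the group's UMIs. Jund followed at 105 CPM (99.9 to 110). The FOS side was low: Fos stood at 31.0 CPM (28.4 to 33.7), Fosl2 at 7.13 CPM (5.93 to 8.50), and Fosl1 and Fosb, both under the minimum, at 2.07 and 0.747 CPM. Junb was at 25 CPM (22.7 to 27.5), its interval just below that of Fos. Egr2 at 5.06 CPM (4.06 to 6.23) and Egr3 at 0.345 CPM were far below Egr1. Junb and Jund overlap genes of the table on the opposite strand (Prdx2 and Gm11175), and since the strand setting of the counting is not given in the sources used here, their counts are uncertain.

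Among the other immediate early genes, Phlda1, a pleckstrin-homology protein, was at 171 CPM (165 to 178), and Btg2, an antiproliferative gene also used as a marker of neurogenic progenitors, at 143 CPM (137 to 149). Zfp36l1, which promotes decay of AU-rich mRNAs, was at 124 CPM (118 to 129), with a lincRNA on its opposite strand. Those 3 held 65.7% of their group. Ier2 was at 74.8 CPM (70.8 to 79.0), Ier3 at 54.8 CPM (51.4 to 58.4) and Ier5 at 30.7 CPM (28.1 to 33.4). Rhob, Btg1, the orphan nuclear receptor gene Nr4a1 and Zfp36 lay between 6.84 and 25.6 CPM.

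Feedback genes were more evenly spread. Spry2 at 253 CPM (246 to 261), Dusp6, the cytoplasmic phosphatase of ERK, at 193 CPM (186 to 199) and Spry4 at 128 CPM (123 to 134) held 55.5% of the sum. Spred1 was at 103 CPM (98.2 to 108) and Spry1 at 62.1 CPM (58.5 to 66.0). The PEA3 factors lay close together, Etv5 at 68.6 CPM (64.8 to 72.6), Etv4 at 60.8 CPM (57.2 to 64.5) and Etv1 at 54.3 CPM (50.9 to 57.8), and the intervals of Etv4 and Etv1 overlapped. The nuclear phosphatase genes were low: Dusp1 at 24.6 CPM (22.3 to 27.0), Dusp4 at 15.1 CPM and Dusp5 at 6.67 CPM (5.51 to 8.0). Spred3, at 11.6 CPM, overlaps Ggn, and Dusp1 overlaps Ergic1, both on the opposite strand, so these 2 counts are uncertain as well.

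For comparisons at equal depth, cells with 2000 UMIs or more were thinned at random to 2000, which kept 3055 cells and left out 710 shallower ones. The variance over cells divided by the mean, which is close to 1 where cells differ by counting alone, was 1.82 for Egr1, 1.49 for Jun, 1.47 for Btg2, 1.42 for both Dusp6 and Phlda1, and 1.40 for Ier3. Fos stood at 1.31, Spry2 at 1.29 and Spry4 at 1.2. The PEA3 genes were near 1, with Etv4 at 1.0 and Etv1 and Etv5 at 1.06, and so were Spred1 at 1.09 and Spred2 at 1.06, while Spred3 stood at 1.14. For all 9106 genes measured at this depth the median was 1.07 and the 90th percentile 1.18. Among the 10 members with a mean of 0.2 to 1 UMI per cell, 6 (Btg2, Dusp6, Egr1, Jun, Phlda1 and Spry2) exceeded the 90th percentile of the 1809 genes in that range, 1.25. Of the 11 members between 0.05 and 0.2 UMIs per cell, Fos and Ier3 exceeded theirs of 1.15, and of the 5 below 0.05, Btg1 at 1.18 and Spred3 exceeded theirs of 1.14. The top 10% of cells held 36.0% of AP-1 and EGR UMIs, 32.8% of those of the other immediate early genes and 27.7% of feedback UMIs.

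**Figure D2:**
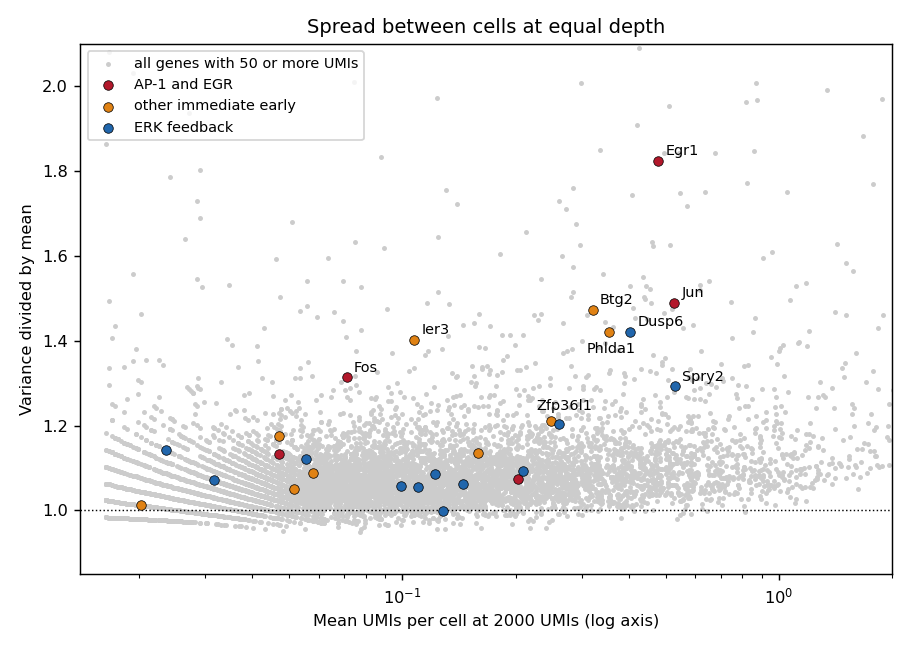
Variance divided by mean across 3055 cells thinned to 2000 UMIs, against the mean UMIs per cell on a log axis, for members in colour and all genes with at least 50 UMIs in grey; genes beyond the axis limits are not drawn. Egr1 is the member with the highest value, 1.82, while Etv4 lies at the dotted line of 1.

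Correlations across the 3055 cells were low at this depth. The AP-1 and EGR sum averaged 1.34 UMIs per cell and the feedback sum 2.13, and counting error at such levels lowers r. The summed AP-1 and EGR genes correlated with the summed feedback genes at r = 0.153 and with the other immediate early genes at r = 0.158 (Pearson, log2 of count plus 1), and the feedback genes correlated with the other immediate early genes at r = 0.0824. Over the 435 pairs of members the median r was 0.00841. The highest pairs were Egr1 with Ier2 at 0.161, Egr1 with Dusp6 at 0.159, Egr1 with Spry2 at 0.125, Fos with Egr1 at 0.119 and Dusp6 with Spry2 at 0.116. Cells of all these pairs share libraries and capture, and values of this size in sparse counts are given as descriptions.

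Splits by detection show the same cells in levels. These splits of Egr1, Dusp6 and Hbegf were chosen after the data had been seen. Free RNA in droplets can give single UMIs, and no cell class of the table is known to lack these genes, so detected means at least 1 UMI and no more. A ratio was counted as past the fold when its whole 95% interval lay above 1.5 or below the inverse of 1.5, among genes with at least 50 UMIs. Egr1 was detected in 900 of the 3055 thinned cells and not in 2155. In cells with Egr1, 4 other members were past the fold upwards. Fos was at 57.2 CPM in cells with Egr1 and 26.7 CPM in cells without, a ratio of 2.14 (1.63 to 2.82). Ier2 was at 124 CPM in cells with Egr1 and 61.3 CPM in cells without, 2.02 (1.68 to 2.43). Nr4a1, the sparsest of the 4, was at 17.8 and 6.96 CPM in the same order, 2.55 (1.5 to 4.35). The feedback gene Dusp6 was at 287 CPM in cells with Egr1 and 166 CPM in cells without, 1.73 (1.54 to 1.94). Of all 9106 genes, 0.0879% were past the fold upwards, 8 genes that include Egr1 itself, these 4 members, the immediate early gene Arc (ratio 2.24, 1.62 to 3.12), Anks1b and Cadm2. Under 8 alternative filters, depths and seeds, Ier2 stayed past the fold in 8 (1.84 to 2.18), Fos in 6 (1.82 to 2.77) and Dusp6 in 3 (1.55 to 1.74). Nr4a1 stayed in 1, and its ratio ran from 0.921 to 3.56.

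With Egr1 itself 26 members were tested, and those other than Egr1 and these 4 stayed within the fold. Ratios are given here for a part of the feedback genes among them, and these were unlike. The others are given below by the number of Egr1 UMIs. Spry4 had a ratio of cells with Egr1 to cells without of 1.47 (1.27 to 1.69) and Spry2 of 1.35 (1.21 to 1.49). Etv4 was at 1.01 (0.806 to 1.26), Etv5 at 0.920 (0.741 to 1.14), Spred1 at 1.0 (0.842 to 1.19) and Spry1 at 1.03 (0.816 to 1.29). Under the 8 alternatives Spry4 ran from 1.24 to 1.53 and Spry2 from 1.27 to 1.46. Etv4 ran from 0.776 to 1.15, Etv5 from 0.869 to 1.06, Spred1 from 0.977 to 1.26 and Spry1 from 1.01 to 1.38. The range of Spry1 thus overlapped those of Spry2 and Spry4, and that of Spred1 overlapped that of Spry4. The feedback sum was 1267 CPM in cells with Egr1 and 981 CPM in cells without, 1.29 (1.23 to 1.36). Without Egr1 itself, the AP-1 and EGR sum was 524 and 396 CPM, 1.32 (1.22 to 1.43). Of 45 other ERK pathway genes tested, 0 were past the fold, and the summed ratio of all 56 listed was 1.01. Median depth before thinning was 4421 UMIs in cells with Egr1 and 4519 in cells without, and the nuclear RNA Malat1 was at 3354 CPM in cells with Egr1 and 2847 CPM in cells without; the part of this difference in the ratios was not tested. The heat shock list stood at 7143 CPM in cells with Egr1 and 7410 CPM in cells without.

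By Egr1 UMIs, the thinned cells fell into 2155 with 0, 579 with 1, 180 with 2 and 141 with 3 or more. Dusp6 stood at 166, 256, 322 and 369 CPM along these classes. Spry2 stood at 240, 292, 322 and 450 CPM. Ier2, an early gene of unsettled molecular role, stood at 61.3, 101, 128 and 213 CPM, and each of these 3 genes was higher in every next class. For all 3, however, the intervals of the classes with 1 and 2 Egr1 UMIs overlap. So do those of the classes with 2 and with 3 or more, and of neighbouring classes only 0 and 1 are apart. Fos, at 26.7, 38.0, 100 and 81.6 CPM, was highest in the class with 2 Egr1 UMIs, but the intervals of the last 2 classes overlap. Etv4, at 63.8, 68.2, 77.8 and 31.9 CPM, and Spred1, at 105, 114, 80.6 and 99.3 CPM, had no such order. Dusp1, at 24.4, 38.0, 30.6 and 35.5 CPM, and Spred2, at 46.4, 58.7, 61.1 and 49.6 CPM, were lowest in the class with 0. Dusp4 stood at 14.2, 19.9, 8.33 and 35.5 CPM. Spred3 stood at 11.4, 9.50, 16.7 and 21.3 CPM, and Etv1 at 54.5, 50.9, 52.8 and 85.1 CPM. For each of these genes, the intervals of the classes with Egr1 overlap that of the class with 0. The median depth before thinning was 4519, 4716, 4295.5 and 3715 UMIs in the classes. Within the S, G2/M and low cell cycle ranges defined below, the ratio of Dusp6 in cells with Egr1 to cells without was 1.75 (1.44 to 2.13), 1.79 (1.38 to 2.31) and 1.54 (1.30 to 1.84), and that of Ier2 was 1.93 (1.45 to 2.58), 2.47 (1.72 to 3.52) and 1.73 (1.25 to 2.41). Along the same ranges Fos had 1.43 (0.852 to 2.37), 2.55 (1.46 to 4.39) and 2.52 (1.63 to 3.91), and Nr4a1 had 2.36 (0.807 to 7.02), 1.76 (0.535 to 5.20) and 3.25 (1.44 to 7.69). In single ranges the interval of Ier2 in G2/M and that of Fos in the low range lay past the fold, and those of Fos in S and of Nr4a1 in S and G2/M included 1.

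**Figure D3:**
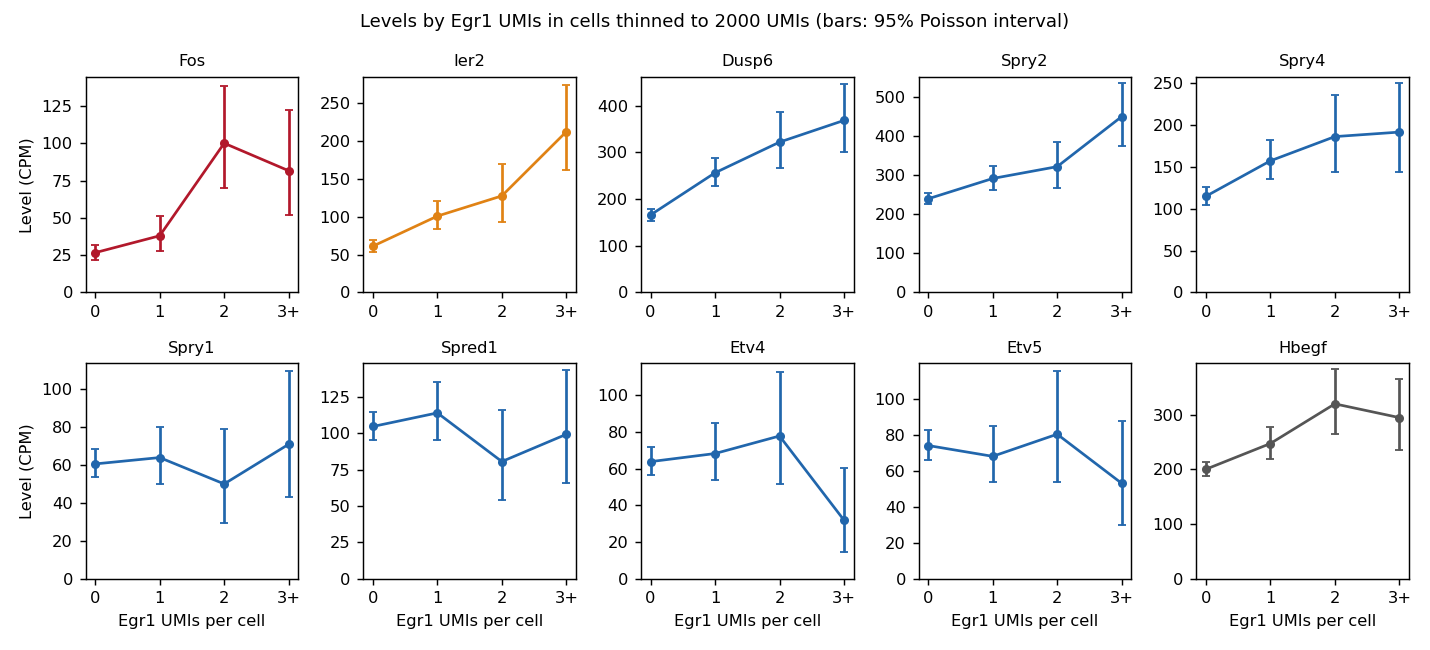
Level in CPM of 9 members and of Hbegf in thinned cells with 0, 1, 2 and 3 or more Egr1 UMIs, with 95% Poisson intervals. Dusp6 stands at 166 CPM with 0 Egr1 UMIs and 369 CPM with 3 or more, while Spry1, Spred1 and Etv5 have intervals that overlap across the classes.

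Split by Dusp6 instead, 884 cells had it and 2171 did not. Egr1 was the single other member past the fold, at 339 CPM in cells with Dusp6 and 198 CPM in cells without, 1.71 (1.54 to 1.90), where 0.0329% of all genes were past it upwards. Junb was at 35.6 CPM in cells with Dusp6 and 18.7 CPM in cells without, 1.91 (1.35 to 2.69), and Spry4 at 173 and 114 CPM, 1.52 (1.31 to 1.76), both within the fold. Fos had a ratio of 1.09 and Phlda1 of 0.928. The feedback sum without Dusp6 had a ratio of 1.21 (1.15 to 1.29), the AP-1 and EGR sum of 1.35 and the other immediate early genes of 1.07.

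Detection of receptors did not separate members by the fold. Cells were split by Egfr (747 with it, 2308 without), by Fgfr1 (402 and 2653) and by either subunit of the LIF receptor, Lifr or Il6st (201 and 2854). In none of the 3 splits was any of the 26 tested members past the fold, where 0.0549% of all genes were past it in either direction in each split. With Egfr, the receptor of EGF and HBEGF, the AP-1 and EGR sum was 687 CPM in cells with it and 668 CPM in cells without, 1.03 (0.957 to 1.1). The feedback sum was 1084 and 1059 CPM, 1.02 (0.967 to 1.08). The PEA3 gene Etv4 was at 77.0 CPM in cells with Egfr and 59.8 CPM in cells without, 1.29 (1.03 to 1.61), and Etv5 at 87.0 and 67.8 CPM, 1.28 (1.04 to 1.58), both within the fold. With Fgfr1 the 3 sums had ratios of 0.984, 0.987 and 0.997. With Lifr or Il6st the AP-1 and EGR ratio was 0.908 (0.795 to 1.03) and the feedback ratio 1.05. Receptor transcripts were sparse, at 144 CPM for Egfr and 17.1 CPM for Il6st, so many cells without a UMI may express them, and a small difference was not detectable at this depth.

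Hbegf, an EGFR ligand and itself an ERK target, was the most abundant of 20 listed growth factor ligands, at 222 CPM over the kept cells, followed by Pdgfa at 29.2 CPM and Fgf1 at 21.6 CPM. It was detected in 707 thinned cells and not in 2348. None of the 26 tested members was past the fold in this split, where 0.275% of all genes were in either direction. Jun was at 379 CPM in cells with Hbegf and 229 CPM in cells without, 1.65 (1.49 to 1.83), and Phlda1 at 242 and 157 CPM, 1.54 (1.35 to 1.75). Egr1 had a ratio of 1.25, Spry2 of 1.01 and Btg2 of 0.674.

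Cell cycle ranges were set from the summed UMIs of S and G2/M gene lists in each thinned cell. The low range held 1031 cells with at most 13 such UMIs, and the other cells were put in the S range (1034) or the G2/M range (990) by the list that stood higher relative to its mean. The ranges are cuts in a continuous score: 200 cells lay within 1 UMI of the limit. All 3 group sums had ratios of the G2/M range to the low range below 1, within the fold. The AP-1 and EGR sum was 563 CPM in the G2/M range and 765 CPM in the low range, 0.736 (0.681 to 0.795), the other immediate early genes 609 and 873 CPM, 0.697 (0.647 to 0.750), and the feedback genes 943 and 1232 CPM, 0.765 (0.720 to 0.813). Of 24 members tested, 2 were past the fold, both downwards, where 1.64% of all genes were downwards and 5.98% in either direction. They were Phlda1, at 117 CPM in the G2/M range and 249 CPM in the low range, 0.469 (0.40 to 0.549), and Dusp6, at 137 and 261 CPM, 0.526 (0.453 to 0.609). Phlda1 stayed past the fold under all 8 alternatives and Dusp6 under 4 of them. Egr1 had a ratio of 0.692 (0.603 to 0.794), Jun of 0.717 and Spry2 of 0.868, and Spry1 was at 1.12. The median of all genes had a ratio of 0.965. Malat1 was at 2649 CPM in the G2/M range and 3764 CPM in the low range, and median depth before thinning was 5084 and 3992 UMIs; the part of either in the ratios was not tested.

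In the S range Btg2 and Btg1 were past the fold. Btg2 was at 98.2 CPM in the S range and 220 CPM in the low range, 0.447 (0.377 to 0.528), and its relative Btg1 at 14.5 and 36.9 CPM, 0.394 (0.249 to 0.608), where 1.07% of all genes were past the fold downwards. Of 25 tested members these were the 2 past it in either direction, where 5.70% of all genes were. Egr1 was at 1.11 (0.984 to 1.25), Ier2 at 1.27 (1.03 to 1.58), Dusp6 at 0.781 (0.686 to 0.888), Phlda1 at 0.651 (0.566 to 0.749) and Dusp1 at 0.499, all within the fold. In the G2/M range Btg1 had a ratio of 0.521 (0.343 to 0.778) and Btg2 of 0.740 (0.640 to 0.856), also within it, so all 4 genes had intervals below 1 in both ranges, and the difference between the ranges was not tested. The AP-1 and EGR sum was 684 CPM in the S range and 765 CPM in the low range, 0.894, the other immediate early genes 584 and 873 CPM, 0.669, and the feedback genes 1015 and 1232 CPM, 0.824. Of 40 ERK pathway genes tested, 0 were past the fold in either range. All 56 listed had summed ratios of 0.923 in the G2/M range and 0.962 in the S range.

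**Figure D4:**
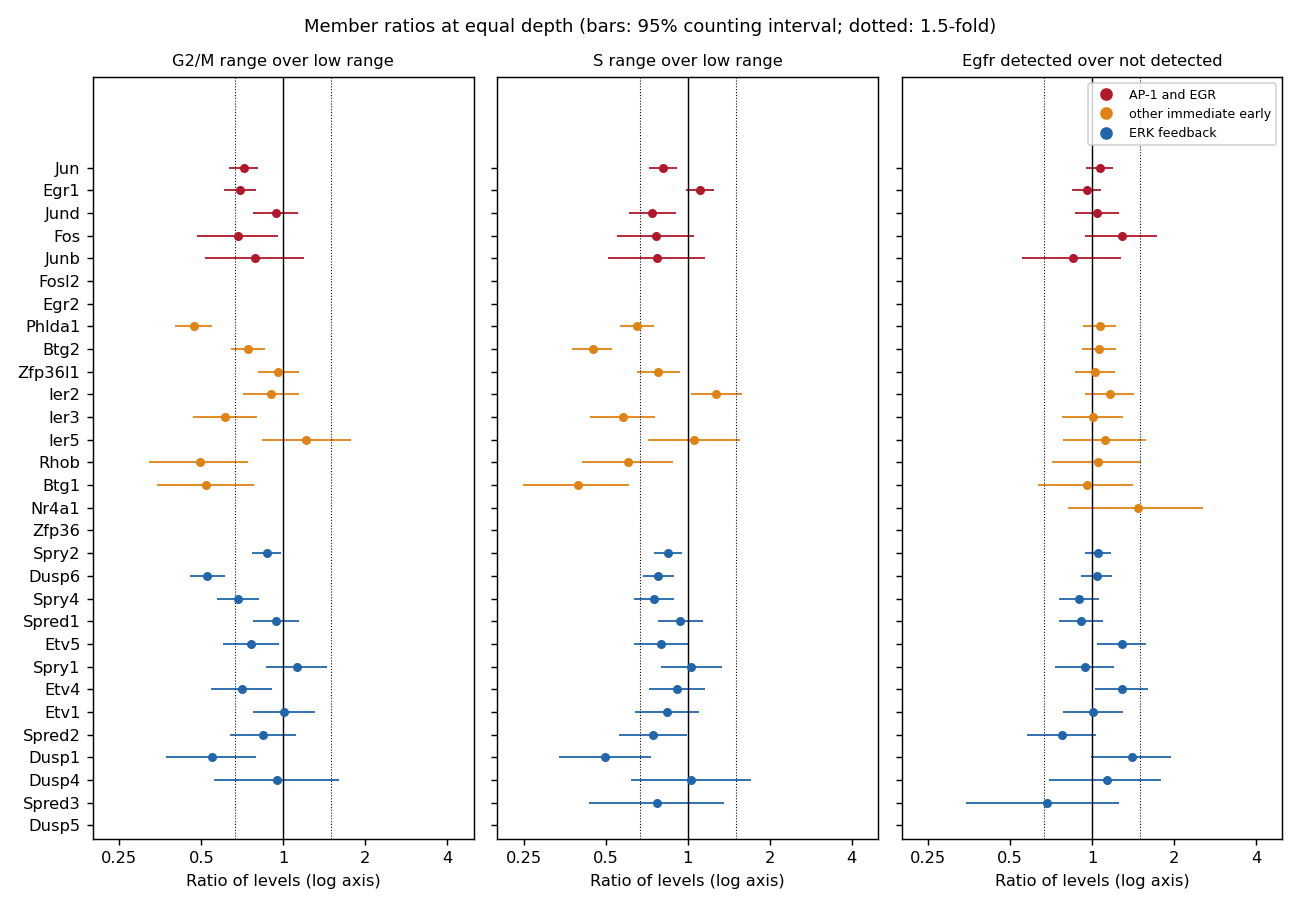
Ratio of member levels at equal depth, with 95% counting intervals on a log axis, for the G2/M range over the low range, the S range over the low range, and cells with Egfr over cells without. Dotted lines mark 1.5-fold in each direction; Phlda1 and Dusp6 lie beyond it for G2/M and Btg1 and Btg2 for S, and no member does for Egfr.

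The 3765 cells formed 8 clusters when grouped without the members, so no member chose a cluster. Also held out were the ERK pathway, receptor, ligand, non-member immediate early, heat shock, cell cycle, p53 target, hypoxia and amino acid lists. The cell type lists were not held out. Counts of neuron, astrocyte and oligodendrocyte precursor genes in a cluster are therefore not independent of the grouping. The clusters held 1024, 850, 759, 532, 265, 191, 116 and 28 cells. A cluster is compared with all other cells, and 12 of the 30 members were past the fold in at least 1 of the 8, while 18 stayed within it in all of them. Of all 11057 genes, 31.6% were past the fold in at least 1 cluster. For clusters with members past the fold, the shares of all genes below take the direction of those calls. In either direction, 6.52% of all genes were past the fold in cluster 1, 2.79% in cluster 2 and 3.58% in cluster 4. The share was 6.69% in cluster 5, 15.9% in cluster 7 and 7.26% in cluster 8. Each call was looked up again under 9 alternative filters, resolutions and seeds, in the cluster with the highest ratio of the same list (clusters 4, 5 and 8) or the one sharing most cells (clusters 1, 2 and 7). Cluster 4, in which 50 of 54 G2/M genes were above the fold, had lower Fos, at 15.5 CPM in the cluster and 35.2 CPM in other cells, 0.439 (0.329 to 0.578), lower Egr1, at 139 and 246 CPM, 0.565 (0.514 to 0.620), and lower Dusp6, at 121 and 212 CPM, 0.568 (0.513 to 0.628). Phlda1 and Btg2 had ratios of 0.567 and 0.576. These were 5 of 30 members, where 1.25% of all genes were past the fold downwards. Phlda1 stayed past it under all 9 alternatives, and Egr1 (0.552 to 0.704), Dusp6 (0.553 to 0.654) and Fos (0.361 to 0.558) under 7. Btg2 stayed under 5, with ratios of 0.491 to 0.801. Egr1 and Dusp6 were within the fold with no mitochondrial limit, at 0.704 (0.649 to 0.762) and 0.654 (0.598 to 0.714), and with another seed, and Fos without cells above 12000 UMIs, at 0.526 (0.388 to 0.700), and with that seed. Cluster 2, with 43 of 43 S genes above, had lower Btg2, at 75.8 CPM in the cluster and 169 CPM in other cells, 0.448 (0.40 to 0.501), and lower Ier3, at 32.6 and 63.5 CPM, 0.513 (0.430 to 0.609), where 0.859% of all genes were past the fold downwards. Btg2 stayed past it under all 9 alternatives (0.421 to 0.560) and Ier3 under 4 (0.513 to 0.644).

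Cluster 1, in which 39 of 43 S genes and 49 of 54 G2/M genes were below the fold, had higher Phlda1, at 261 CPM in the cluster and 138 CPM in other cells, 1.90 (1.77 to 2.04), and higher Rhob, a small GTPase gene, at 38.8 and 20.6 CPM, 1.89 (1.55 to 2.29), where 1.88% of all genes were past the fold upwards. Phlda1 stayed past it under 8 alternatives (1.48 to 1.90) and Rhob under 5 (1.27 to 2.14). Dusp6 was at 1.60 and Jun at 1.48 there, within the fold. Cluster 5, with 14 of 14 hypoxia and glycolysis genes above, had higher Btg2, at 372 CPM in the cluster and 133 CPM in other cells, 2.79 (2.45 to 3.18), higher Ier3, an early gene tied to stress survival, at 131 and 51.6 CPM, 2.53 (2.02 to 3.14), and higher Fos, at 63.9 and 29.6 CPM, 2.16 (1.55 to 2.93), where 3.92% of all genes were. Btg2 and Ier3 stayed past it under all 9 alternatives and Fos under 7, with 1.84 (1.36 to 2.45) at a mitochondrial limit of 5% and 2.18 (1.49 to 3.10) without cells above 12000 UMIs. In the same cluster 5 of 7 listed astrocyte genes were past the fold upwards, with a summed level of 4415 CPM in the cluster and 1493 CPM in other cells, as was 1 of 4 oligodendrocyte precursor genes. The hypoxia and glycolysis list summed to 6032 and 2139 CPM, and 45 of 54 G2/M genes and 23 of 43 S genes were below the fold. The part of these lists in the member ratios was not tested. The feedback sum of cluster 5 had a ratio of 0.967. Of the PEA3 genes, Etv4 was at 0.597, Etv5 at 0.949 and Etv1 at 1.61 (1.22 to 2.09), all within the fold. Cluster 6 had 8 of 12 amino acid response genes above and 0 members past the fold, where 2.87% of all genes were in either direction. Cluster 3 also had 0, where 1.21% of all genes were.

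The 2 smallest clusters rest on few UMIs. Cluster 8 was neuron-like, with 10 of 11 immature neuron genes above, and its 28 cells held 54004 UMIs. Stmn2, Tubb3, Nsg2 and Celf4 of that list were among the clustering genes, so this count is not independent of the grouping. Fos had 7 UMIs, or 130 CPM in the cluster against 30.7 CPM in other cells, 4.23 (1.69 to 8.77), and Dusp4 also 7 UMIs, 130 against 14.8 CPM, 8.78 (3.50 to 18.4). Btg1 had 9 UMIs, 167 against 24.0 CPM, 6.95 (3.15 to 13.3), and Spred3 had 4, with a ratio of 6.52 (1.76 to 17.0); 5.51% of all genes were past the fold upwards there. Spry2 had 1 UMI, 18.5 against 254 CPM, 0.0730 (0.00185 to 0.407), where 1.75% of all genes were past it downwards. Dusp4, Fos and Spry2 (up to 0.191) stayed past the fold under all 9 alternatives. Btg1 was within it at a mitochondrial limit of 5%, at 4.45 (1.44 to 10.5), and Spred3 with no such limit, at 5.53 (1.49 to 14.4), and without barcodes ending in an unread base, at 5.09 (1.37 to 13.2). The 9 members Fosl2, Junb, Egr2, Ier3, Zfp36, Nr4a1, Rhob, Dusp5 and Etv1 had 0 UMIs. The interval of a count of 0 reaches 68.3 CPM there, above the level of each of the 9 in the other cells. Lower levels were thus not detectable at this depth. The feedback sum was 556 CPM in the cluster and 1034 CPM in other cells, 0.537 (0.362 to 0.767). In cluster 7, of 116 cells with a median of 935 UMIs and high Malat1, Nr4a1 with 8 UMIs was at 5.29 (2.25 to 10.6) and Spred3 with 10 UMIs at 6.86 (3.24 to 12.9), where 12.1% of all genes were past the fold upwards. Both stayed past it under the 8 alternatives in which such a cluster formed, and at a minimum of 1000 genes none did.

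**Figure D5:**
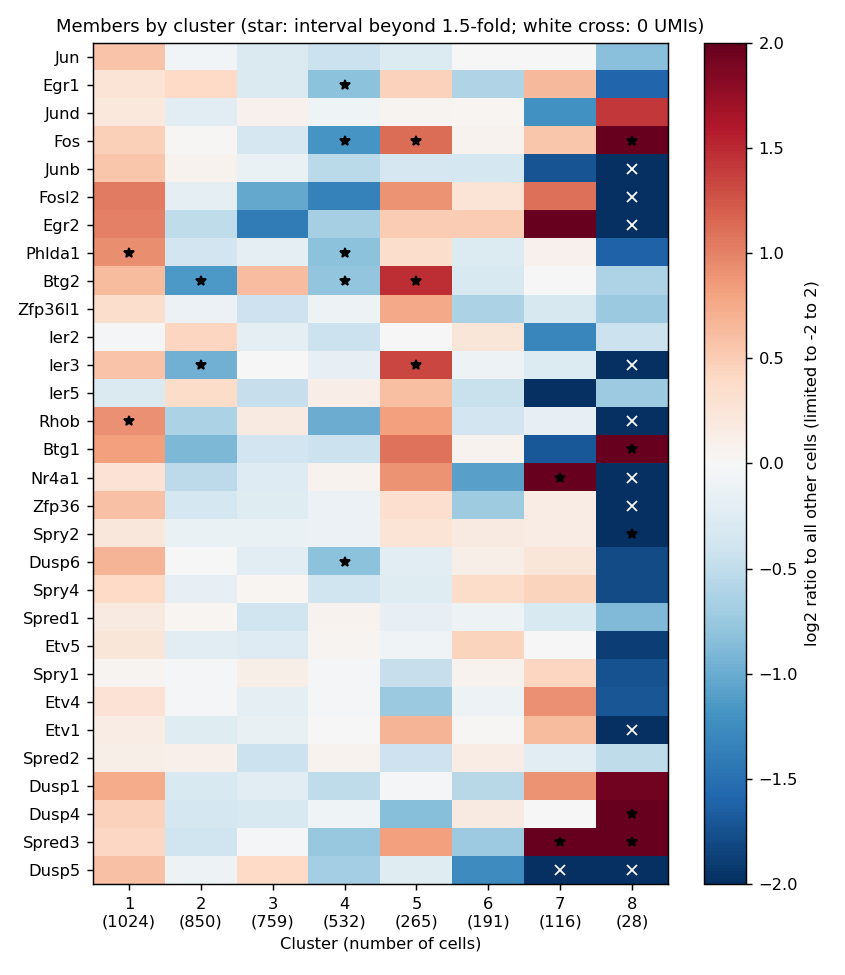
Log2 ratio of each member's level in a cluster to that in all other cells, drawn up to the limits of the colour bar, for 8 clusters with the number of cells beneath each. Stars mark intervals beyond 1.5-fold and white crosses 0 UMIs; cluster 4 has 5 downward stars, and cluster 8, of 28 cells, has 4 upward and 1 downward.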

How the data were processed

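The authors deposited 1 table of raw UMI counts per gene and barcode, not normalized. The submitters' processing notes give mm10 as its build. An aligner, a counting program and a strand setting were not given in the sources used here. Levels are CPM over summed UMIs. Intervals at 95% are exact Poisson for levels and exact conditional binomial for ratios. They cover counting error only. Since the table counts as 1 sample, the count model planned for separable samples was not run. The members and all gene lists were chosen with earlier results of these data known. All 33 listed genes are accounted for. Other genes are named from the lists when past the fold, or as receptors and ligands with at least 50 UMIs, or as the 10 genes (of those with at least 200 thinned UMIs) most correlated with the AP-1 and EGR sum or with the feedback sum. Arc, Anks1b and Cadm2 are named as all the remaining genes past the fold in their split, chosen after their values were seen. Of 4000 barcodes 235 were left out, 25 pairs of barcodes were 1 base apart, and 285 barcodes had an unread last base. Clusters came from scanpy 1.11.5 and leidenalg 0.10.2 (2000 variable genes, 30 components, 15 neighbours, resolution 0.8, seed 0), with numpy 2.4.6, scipy 1.17.1 and pandas 2.3.3 under Python 3.11.15. Ratios and correlations were tested on simulated data. Promoters are from RefSeq, and 25 of the 33 listed genes matched.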

Additional observations from a re-analysis of the deposited data

How the results depend on the processing

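No paired analysis was possible because the table is 1 sample and carries no replicate numbers. Gene minimums of 200 and 1000 leave the thinned cells as they were, so they were counted only for levels and clusters. Of 343 values under the remaining alternatives, 297 stayed within the interval or tolerance of the reported value. A ratio was called reversed only if it was past the fold as reported and then crossed 1. Ratios within the fold that crossed 1 were not called reversed, and some are among the values below. The 1 value called reversed was Nr4a1 in cells with Egr1 over cells without, 0.921 at a mitochondrial limit of 5%. That limit also gave a feedback level of 1014 CPM, ratios in the G2/M range of 0.646 (other immediate early) and 0.825 (feedback), 1.23 for the other immediate early genes by Egr1 and 1.09 for feedback by Egfr. With no mitochondrial limit, the other immediate early ratio by Egfr was 0.985 and the G2/M feedback ratio 0.815. Without cells above 12000 UMIs, Lifr or Il6st gave 1.04 (AP-1 and EGR) and 0.943 (feedback), Fgfr1 1.08 (other immediate early), Egr1 1.24 (other immediate early) and Egfr 1.09 (feedback). Without barcodes ending in an unread base, Egr1 gave 1.5 (AP-1 and EGR) and Egfr 1.08 (feedback). Thinning to 1000 UMIs gave r = 0.0976 between AP-1 and EGR and feedback sums, 0.789 and 1.25 (AP-1 and EGR, other immediate early) by Lifr or Il6st, and 0.727 in S (other immediate early). Thinning to 3000 gave 0.638 in G2/M (other immediate early) and 1.11 by Egfr (feedback). Seed 1 gave 0.661 in G2/M and 1.11 by Egfr (both AP-1 and EGR), and 1.12 and 0.941 (AP-1 and EGR, feedback) by Lifr or Il6st. Averaging CPM per cell gave 701, 710, and 1067 CPM for the 3 sums, and counting Dusp1 as immediate early gave 692 CPM (other immediate early) and 1008 CPM (feedback). Members past the fold in G2/M numbered 2 of 24 as reported (5.98% of all genes, in either direction), 1 of 23 at the 5% limit (6.03%), 1 of 26 without cells above 12000 UMIs (5.93%), 1 of 23 at 1000 UMIs (4.78%) and 4 of 25 at 3000 UMIs (6.53%). In S they numbered 2 of 25 as reported (5.70%), 4 of 26 without cells above 12000 UMIs (5.71%) and 4 of 24 without unread-base barcodes (5.62%). The cause was not tested. Across the alternatives, 10 to 15 members were past the fold in a cluster, where 19.7% to 35.3% of all genes were.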

Other observations

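Of the listed immediate early genes that were no members, Id3 at 428 CPM, Atf4 at 266 CPM, Plk2 at 212 CPM and Klf10 at 166 CPM were the highest. In the G2/M range 1 of 23 tested was past the fold, Plk2 at 0.563. Of all genes, 1.64% were past it downwards there and 5.98% in either direction. In the S range 3 of those tested were past it, all downwards: Gadd45a at 0.315, Tob1 at 0.481 and Tsc22d1 at 0.529. There 1.07% of all genes were past it downwards and 5.70% in either direction. The ligand gene Hbegf was at 0.534 of its low range level in the G2/M range, also past the fold, and at 1.0 of it in the S range. Across the 3055 thinned cells, the genes most correlated with the AP-1 and EGR sum, over 5178 genes, were Hbegf (r = 0.165), the cyclin gene Ccnd1 (0.122), Fam212b (0.121), Oraov1 (0.118) and Vim (0.116). With the feedback sum they were mt-Rnr2 (0.151), Ccnd2 (0.149), Oraov1 (0.147), Malat1 (0.131) and Sox9 (0.130). These are weak values in sparse counts and are given as descriptions.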
